A study of Mus musculus with 16 samples.

Results

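Stool bacteria of Msc knock-out (KO) mice with colitis were compared with those of wild-type (WT) mice with colitis, 4 libraries against 4, which is 8 of the 16 libraries of the series. The bacterial 16S ribosomal RNA gene was read over variable regions 3 to 4, and each distinct sequence in the deposited table is called here an amplicon sequence variant (ASV). Both groups carry the time point label T1 and a condition label written "DDS-induced_col", while the series title speaks of colitis induced by DSS (dextran sulfate sodium). The other 8 libraries, 4 WT and 4 KO at T0 and labelled healthy, entered the fits to share one estimate of the spread and are used otherwise only where stated. The labels used here do not give the mouse strain, age or sex, the kind of Msc allele, the DSS dose or the cage, and do not say whether a replicate number, 0 to 3, marks one animal at both time points. P-values therefore measure the spread between these samples, which may be partly technical, and genotype and cage cannot be told apart. Bacterial reads hold no Msc sequence, so the genotype labels could not be checked from these data.

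The host gene Msc codes for musculin, a transcriptional repressor of the basic helix-loop-helix class. DSS is a sulfated polysaccharide that injures the colonic epithelium and is widely used to induce colitis in mice. In the mouse colon most bacteria are strict anaerobes of Bacteroidota (such as Muribaculaceae and Parabacteroides) and of Firmicutes (mainly Clostridia), which ferment fibre and host glycans to short-chain fatty acids, and inflammation commonly brings facultative anaerobes such as Escherichia. A 16S read count gives a share of the community and not an amount. Fewer cells of one bacterium and more cells of the others cannot be told apart, as the total bacterial load was not measured here.

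The 8 libraries held 55414 to 70577 reads each, and together 1133 ASVs with 326 genus labels, 234 family labels and 31 phylum labels. A count of 3 reads, used below as the limit for a taxon with no read, is a share of 0.00425% to 0.00541% depending on the library, a limit that covers counting error only. WT replicate 1 stood apart. It held 844 ASVs, against 172 to 210 in the other 7 libraries, and 711 of them were in no other library of the series. Those 711 ASVs took 10047 reads, or 17.1% of that library, with a median of 10 reads each and a largest share of 0.379%. They carried 29 phylum labels, of which 23 occurred nowhere else, and 248 genus labels, of which 242 occurred nowhere else, and 6 of the ASVs were archaea.

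The phyla with most of these reads were Acidobacteriota (119 ASVs, 2228 reads), Proteobacteria (98 ASVs, 1496 reads), Verrucomicrobiota (73 ASVs, 1293 reads), Chloroflexi (99 ASVs, 1154 reads) and Planctomycetota (74 ASVs, 1039 reads), while Firmicutes gave 15 ASVs with 132 reads. The leading families were WD2101_soil_group (48 ASVs, 812 reads), Chthoniobacteraceae, Pyrinomonadaceae, Anaerolineaceae and Pedosphaeraceae. The leading genus labels were WD2101_soil_group, Candidatus_Udaeobacter, RB41, unclassified Anaerolineaceae and Vicinamibacteraceae. Most of these names are known from soil, sediment or water. The other 133 ASVs of that library were shared with other libraries, and several results that change with the 711 are given with and without them.

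Knock-out stool held more ASVs than wild-type stool when the 711 were left out, and the mean was lower with them. Thinned to an equal 49253 reads, WT replicates 0 to 3 held 191, 842, 172 and 189 ASVs, and KO replicates 0 to 3 held 199, 206, 203 and 210. WT replicate 1 lay far above all others, and the 3 remaining WT libraries lay below all KO libraries. The difference of the means, KO minus WT, was -144 ASVs (exact permutation test, two-sided, p = 1). With the 711 ASVs left out, at 48557 reads, the means were 171 ± 26.8 in WT and 204 ± 4.74 in KO (SD, n = 4 each). WT replicate 1 then had the fewest ASVs, 133, and the groups did not overlap. The difference was 33.2 ASVs (exact permutation p = 0.0286, the smallest that 4 against 4 allows). Leaving out every ASV found in a single library gave 28.0 (exact permutation p = 0.0286). The groups then nearly met, at 180.9 in WT replicate 3 and 181.9 in KO replicate 0, and WT replicate 1 was again lowest at 133. Leaving out WT replicate 1 as a whole gave 20.4 (exact permutation p = 0.0286). These alternatives were chosen after the data were seen.

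**Figure D1:**
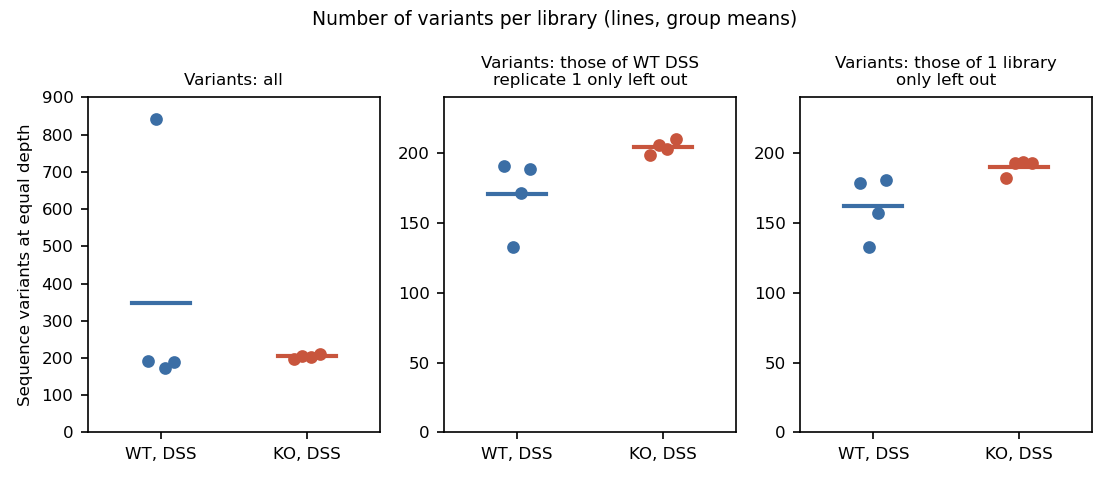
Number of ASVs per library at equal depth (points) with group means (lines) for WT and Msc KO under DSS, counted with all ASVs, without those found only in WT replicate 1, and without those found in 1 library only. WT replicate 1 stands at 842 in the left panel and at 133 in the others, and the left panel has a longer axis.

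The Shannon index, which weighs the number and the evenness of ASVs, was 3.31 ± 0.419 in WT and 3.28 ± 0.110 in KO (SD, n = 4 each). WT replicate 1 had the highest value of the 8 libraries, 3.91, and WT replicate 3 the lowest, 2.99. With the 711 ASVs left out, WT replicate 1 fell to 2.89 and the WT mean to 3.06 ± 0.165. The difference was then 0.22 (exact permutation p = 0.0857), which did not pass the threshold of 0.05.

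Composition differed between the genotypes over all ASVs. Bray-Curtis distance runs from 0 for identical shares to 1 for nothing shared, and pairs of a WT and a KO library lay 0.341 to 0.510 apart. The largest distances within a group, 0.366 in WT and 0.385 in KO, lay inside that range. KO replicate 1 was the library farthest from WT, at 0.459 to 0.510 from the 4 WT libraries. Genotype accounted for 43.3% of the variance in distance with all ASVs and for 44.6% with the 711 left out (exact permutation over 35 divisions of the libraries, p = 0.0286 for each, the smallest they allow). With genera in place of ASVs it accounted for 42.5% (exact permutation p = 0.0286). The share was 36.4% with Aitchison distance, which uses log-ratios of counts, and 28.8% with Jaccard distance, which uses presence alone (exact permutation p = 0.0286 for each). The distances given include the 711 ASVs, as do the genus, Aitchison and Jaccard shares, which were not computed without them.

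The dominant bacteria were shared between the genotypes. Of the 1133 ASVs, 58 were in all 8 libraries and held 75.3% of the reads, and 191 were in both genotypes and held 85.2%. A further 140 were in KO only and 802 in WT only, or 91 in WT only without the 711. None of the 10 most abundant ASVs passed the test between genotypes, and 1 of the 10, asv12, was too rare across libraries to be tested (ASVs are numbered here by their total reads over the series).

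Parabacteroides, a saccharolytic gut anaerobe represented almost wholly by asv2, assigned to Parabacteroides goldsteinii, held 22.03%, 22.8%, 28.7% and 31.0% of reads in WT replicates 0 to 3 and 22.9%, 12.7%, 17.9% and 18.6% in KO replicates 0 to 3. Only KO replicate 0 reached the WT range. The log2 difference was -0.53 ± 0.42 SE (edgeR quasi-likelihood test with Benjamini-Hochberg adjustment, adjusted p = 0.441). It was -1.28 with TMMwsp scaling factors (edgeR adjusted p = 0.00319) and -1.04 without WT replicate 0 (edgeR adjusted p = 0.00968), and it also passed with a filter of at least 20 reads and with the DSS libraries alone.

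Muribaculaceae, glycan-degrading Bacteroidota typical of the mouse gut, held 17.2%, 15.5%, 13.9% and 15.8% in WT and 18.3%, 21.7%, 22.5% and 23.2% in KO. The groups did not overlap, but with the 711 ASVs left out WT replicate 1 rose to 18.7% and then overlapped KO replicate 0. As a genus the log2 difference was 0.39 ± 0.29 (edgeR adjusted p = 0.401), and its sign turned to -0.25 with TMMwsp factors. As a family, with the same reads, it was 0.49 ± 0.19 (edgeR adjusted p = 0.0822), and its sign held in all 19 alternatives. With total counts only it passed at both ranks (edgeR adjusted p = 0.0361 and 0.0362). The median log2 difference over all genera tested was 0.30 in the scaling used and -0.27 with TMMwsp factors, so directions of this size among genera depend on the scaling. Clostridia_UCG-014, an uncultured clostridial lineage, held 19.1% ± 3.36 in WT and 14.98% ± 3.80 in KO (SD, n = 4 each), with overlapping libraries (edgeR adjusted p = 0.558). With TMMwsp factors its log2 difference of -1.12 passed (edgeR adjusted p = 0.0141), as did that of -0.91 without WT replicate 0 (edgeR adjusted p = 0.0343).

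Bacteria that are often abundant in inflamed gut did not pass between the genotypes. Escherichia-Shigella, facultative anaerobes of Enterobacteriaceae, held 6.57%, 3.35%, 4.61% and 4.88% in WT and 12.6%, 6.33%, 4.10% and 2.10% in KO. The highest and the lowest of the 8 libraries were both KO. Its log2 difference of 0.53 (edgeR adjusted p = 0.603) turned to -0.29 with TMMwsp factors and to -0.51 without KO replicate 0. Mucispirillum, a mucus-dwelling member of Deferribacterota, held 8.94%, 0.50%, 0.918% and 0.996% in WT and 1.31%, 1.45%, 1.498% and 1.58% in KO. WT replicate 0 lay above KO and the other 3 WT libraries below it, and without WT replicate 0 the log2 difference turned from -0.62 (edgeR adjusted p = 0.596) to 0.45.

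Unclassified Lachnospiraceae held 1.40% ± 0.407 in WT and 3.01% ± 1.13 in KO (log2 difference 1.10 ± 0.38, edgeR adjusted p = 0.0650). This passed without WT replicate 2 (edgeR adjusted p = 0.0428) or without KO replicate 1 (edgeR adjusted p = 0.00991). Turicibacter held 2.04% ± 1.02 in WT and 1.62% ± 0.614 in KO, and the genus label Ruminococcaceae 1.86% ± 1.14 and 1.63% ± 1.32, both with overlapping libraries and log2 differences of -0.70 and -0.44 that turned positive with RLE factors.

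**Figure D2:**
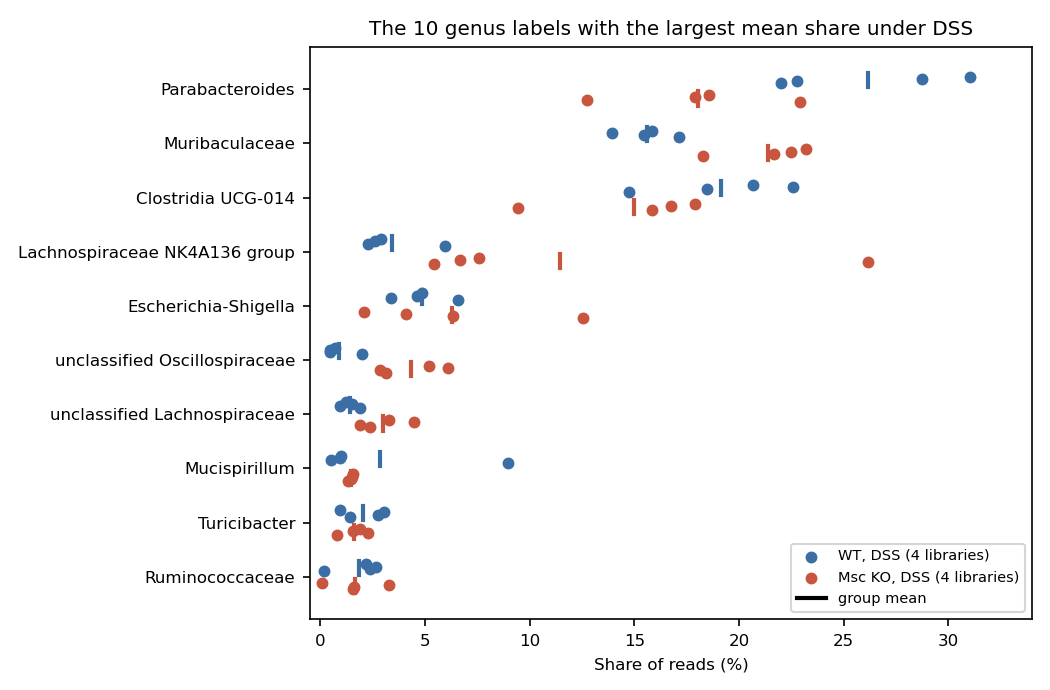
Share of reads (%) of the 10 genus labels with the largest mean share over the 8 libraries, with 1 point per library and a bar at each group mean. Muribaculaceae and unclassified Oscillospiraceae do not overlap between genotypes, and single libraries stand out for Mucispirillum (WT replicate 0, 8.94%) and the Lachnospiraceae NK4A136 group (KO replicate 1, 26.2%).

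A genus was tested where at least 4 of the 16 libraries held at least 5 of its reads, which 66 genera did, with 83.0% or more of each library's reads. Of these, 9 (13.6%) passed an adjusted p of 0.05, with 7 (10.6%) higher and 2 (3.03%) lower in KO, and 19 had an unadjusted p under 0.05. Groups did not overlap for 11 (16.7%), 7 of which were among the 9. With TMMwsp factors 6 were higher and 9 lower, with 8 of the 9 genera again past the threshold. A further 263 genus labels were too rare to test. Parvibacter met the read filter only through KO libraries under DSS, and Anaerostipes only through WT libraries under DSS, so these 2 had to differ. The [Eubacterium] fissicatena group had 5 or more reads in 1 WT library and in no healthy library, so it too reached the filter only because of the KO libraries. Values of these 3 genera are given as a description, with no p.

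Several Clostridia were higher in KO stool. The [Eubacterium] fissicatena group, a lineage of Lachnospiraceae, had no read in WT replicates 0 to 2 and 0.00752% in WT replicate 3, against 2.88%, 0.989%, 1.03% and 1.02% in KO. All KO libraries lay far above all WT libraries. The fitted log2 fold change, 9.78 ± 1.43, rests on 5 WT reads.

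Unclassified Oscillospiraceae, anaerobes common in the colon, held 1.98%, 0.439%, 0.461% and 0.690% in WT and 3.15%, 2.85%, 6.08% and 5.17% in KO. The groups did not overlap, although WT replicate 0 stood above the other WT libraries. The log2 fold change was 2.46 ± 0.45 (edgeR adjusted p = 0.00124), and the call held in all 19 alternatives run. The ASV asv19 carried much of it, with 2.39%, 1.77%, 3.89% and 3.42% in KO and 3 reads in WT, all in replicate 2.

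Ruminococcus, which includes degraders of plant fibre and resistant starch, held 0.0182%, 0.186%, 0.330% and 0.390% in WT and 1.76%, 1.58%, 2.64% and 3.28% in KO. Every KO library exceeded every WT library, and the log2 fold change was 3.19 ± 0.92 (edgeR adjusted p = 0.0368). Each KO library held 3 ASVs of this genus and each WT library 1, asv24. Leaving out WT replicate 1 (edgeR adjusted p = 0.0819), WT replicate 3 (0.0775), KO replicate 0 (0.0504), KO replicate 2 (0.0605) or KO replicate 3 (0.0818) ended the call, with log2 fold changes of 2.98 to 3.26.

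Anaerotruncus, a fermenting genus of Ruminococcaceae, held 0.00827%, 0%, 0.00521% and 0.0105% in WT and 0.0751%, 0.165%, 0.240% and 0.0562% in KO. Its lowest KO library exceeded its highest WT library (log2 fold change 4.48, edgeR adjusted p = 0.00553). Parvibacter, a genus of the actinobacterial family Eggerthellaceae seen here as asv223, had no WT read and 0.0524%, 0.182%, 0.0866% and 0.0397% in KO. Its KO mean was at least 18.2-fold above the limit of 3 reads per WT library. It had no read in any healthy library. With no filter on low counts neither genus passed, at edgeR adjusted p of 0.153 for Anaerotruncus.

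The Lachnospiraceae NK4A136 group, anaerobes abundant in mouse stool, held 5.95%, 2.28%, 2.63% and 2.89% in WT and 5.43%, 26.2%, 6.66% and 7.57% in KO. KO replicate 1 stood far above the rest, and WT replicate 0 exceeded KO replicate 0. The log2 fold change was 1.56 ± 0.40 (edgeR adjusted p = 0.0159), and 10 of 19 alternatives ended the call. It was 1.14 without KO replicate 1 (edgeR adjusted p = 0.0547), 1.75 without WT replicate 0 (edgeR adjusted p = 0.0766) and 1.41 without WT replicate 3 (edgeR adjusted p = 0.0570). The [Eubacterium] xylanophilum group was called (edgeR adjusted p = 0.0404) on reads of KO replicate 0 alone, 0.239%, and had no read in the other 7 libraries under DSS. Without KO replicate 0 no read was left, and leaving out any WT library also ended that call (edgeR adjusted p from 0.0654 to 0.0837).

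Both genera that were lower in KO were Clostridia, with WT means of 3.02% and 2.01%. Anaerostipes, which forms butyrate from sugars and lactate, held 0.979%, 3.08%, 4.38% and 3.64% in WT and had no read in any KO library. The WT mean of 3.02% ± 1.46 (SD, n = 4) was at least 611-fold above the KO limit. It was a single ASV, asv18, with no read in any healthy library.

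The [Eubacterium] coprostanoligenes group, named after a species that reduces cholesterol to coprostanol, held 0.341%, 1.62%, 2.83% and 3.23% in WT and 0.0411%, 0.271%, 0.0144% and 0.0893% in KO. WT replicate 0 lay closest to KO and the groups did not overlap. The log2 fold change was -4.71 ± 1.30 (edgeR adjusted p = 0.0222). Leaving out KO replicate 0 (edgeR adjusted p = 0.0504), KO replicate 2 (0.0605) or KO replicate 3 (0.0635) ended the call.

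**Figure D3:**
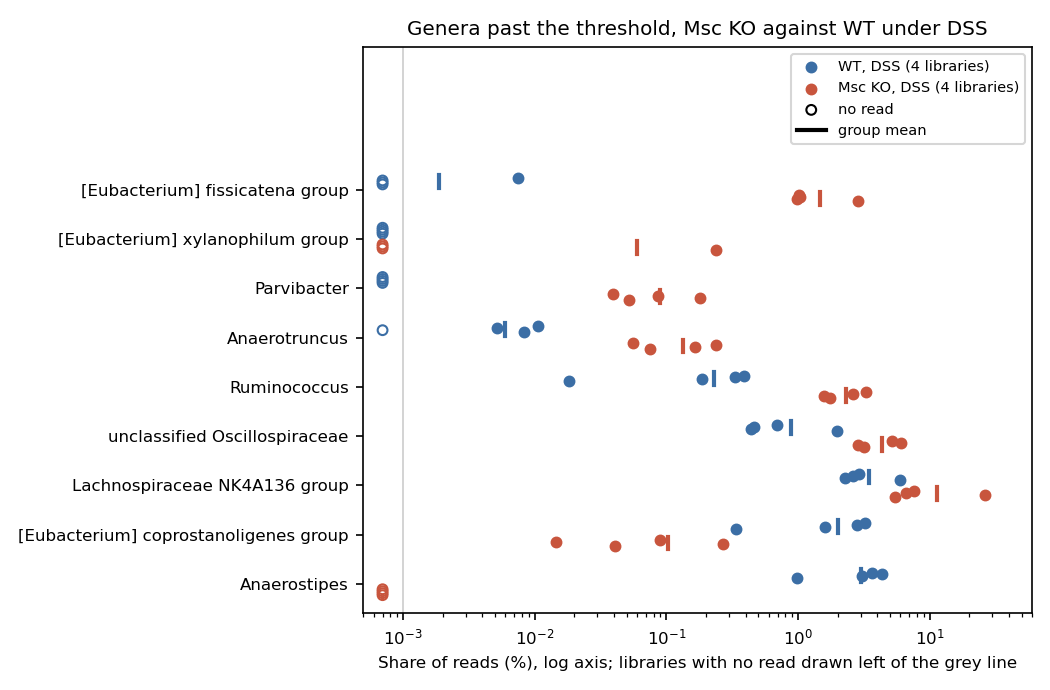
Share of reads (%, log axis) of the 9 genera past the threshold, with 1 point per library, a bar at each group mean, and open points left of the grey line for libraries with no read. Anaerostipes has reads in the 4 WT libraries only, Parvibacter in the 4 KO libraries only, and the [Eubacterium] xylanophilum group in 1 KO library only.

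Among 26 families tested, 3 (11.5%) passed, 8 had an unadjusted p under 0.05, and 7 (26.9%) had groups that did not overlap. Lachnospiraceae, a large family of fermenting Clostridia, held 11.3%, 7.42%, 9.21% and 8.81% in WT and 11.7%, 30.7%, 14.2% and 14.3% in KO. KO replicate 1 was far the highest, and KO replicate 0 only just exceeded WT replicate 0. The log2 fold change was 0.94 ± 0.28 (edgeR adjusted p = 0.0380), but 16 of 19 alternatives ended the call, among them leaving out any 1 of the 8 libraries. It was 0.24 without KO replicate 1 (edgeR adjusted p = 0.687).

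Oscillospiraceae held 3.01% ± 1.54 in WT and 7.08% ± 2.46 in KO (SD, n = 4 each), with WT replicate 0, at 5.17%, inside the KO range. The log2 fold change was 1.33 (edgeR adjusted p = 0.0444), and 14 of 19 alternatives ended the call, among them leaving out any library except WT replicate 0 and KO replicate 0. The [Eubacterium] coprostanoligenes family label, with the same reads as the genus, passed as well (log2 fold change -4.35, edgeR adjusted p = 0.0380), and 9 of 19 alternatives ended the call, among them leaving out WT replicate 1, 2 or 3 or KO replicate 2 or 3. The number of families past the threshold was 0 without WT replicate 1, 2 or 3 or KO replicate 2 or 3, 1 without KO replicate 1, 4 without WT replicate 0 and 5 without KO replicate 0.

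The 14 families and 4 phyla with a mean of at least 1% in either group were also compared by exact permutation of their log2 shares, adjusted within each rank. The smallest p that 4 against 4 allows, 0.0286, was reached by 6 families, each with an adjusted p of 0.0667, so that none passed. Of these, Muribaculaceae, Lachnospiraceae and Ruminococcaceae had more reads in KO, and the Clostridia_vadinBB60_group, Acholeplasmataceae and the coprostanoligenes group fewer. Ruminococcaceae, which hold many fibre degraders, had 2.71%, 3.28%, 3.76% and 3.42% in WT and 5.01%, 4.33%, 8.69% and 7.35% in KO. Acholeplasmataceae, wall-less bacteria seen here as Anaeroplasma, had 3.99%, 1.62%, 1.41% and 1.33% in WT and 0.346%, 0.864%, 1.32% and 0.370% in KO. For Acholeplasmataceae the lowest WT and the highest KO library nearly met. With the 711 ASVs left out, the exact permutation p of Muribaculaceae was 0.0571 and that of the other 5 stayed at 0.0286.

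No phylum passed. Firmicutes held 46.3% ± 4.48 in WT and 52.6% ± 5.49 in KO (SD, n = 4 each; exact permutation p = 0.171), and Bacteroidota 42.1% ± 3.58 and 39.4% ± 3.41 (exact permutation p = 0.429). Proteobacteria held 5.50% ± 0.902 and 6.28% ± 4.54 (exact permutation p = 0.8). The log2 ratio of Firmicutes to Bacteroidota was 0.14 ± 0.127 in WT and 0.41 ± 0.256 in KO (exact permutation p = 0.0857). KO replicate 0, at 0.12, lay within the WT libraries, and without it the difference was 0.38 in place of 0.28 (exact permutation p = 0.0286, the smallest that 3 against 4 allows).

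Among single ASVs, most of those called were seen in one genotype and not in the other. Of 308 ASVs tested by the same read filter, 45 (14.6%) passed, with 27 (8.77%) higher and 18 (5.84%) lower in KO, 85 had an unadjusted p under 0.05, and 46 (14.9%) had groups that did not overlap. Of the 27, 23 had no read in any WT library, and of the 18, 14 had no read in any KO library. Fitted fold changes of such ASVs depend on the prior count, so lower bounds against 3 reads per library are given. The 27 summed to 0.119% of reads in WT and 12.1% in KO, and the 18 to 10.7% and 0.0203%, which describes ASVs chosen for that difference. The filter was met through KO libraries under DSS alone by 9 ASVs and through WT libraries under DSS alone by 3, and all 12 passed, as they had to differ. The 9 were asv19, asv36, asv37, asv112, asv138, asv154, asv223, asv259 and asv328, and the 3 were asv18, asv28 and asv171. The other 33 called ASVs met it through other libraries too. Counting the 12, 15 of the 27 and 7 of the 18 would not have met it without the group where they were higher. Their number is thus partly set by the filter. A further 873 ASVs with reads under DSS were too rare to test, so the tested ASVs held 75.6% of reads in KO replicate 1, 82.3% in WT replicate 1 and 93.7% or more elsewhere. Leaving out 1 library gave 18 to 35 calls, with 30 or more for WT libraries and 18, 22 and 20 without KO replicate 1, 2 or 3. The filter was applied again each time, so ASVs that met it through the group of that library alone could not be called.

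Reads in all 4 KO libraries and in no WT library were found for 18 ASVs, which took 3.82% to 7.60% of each KO library, and 16 of them passed. Of the 16, asv36, asv37, asv112, asv138, asv154, asv223, asv259 and asv328 met the filter through KO libraries under DSS alone, so they had to differ. A further part, asv75, asv100, asv170 and asv190, would not have met it without those libraries. The passing of such ASVs is thus partly set by the filter. The 18 were 17 Firmicutes and 1 actinobacterium, with 7 in Lachnospiraceae and 5 in Ruminococcaceae or Oscillospiraceae. Among all 308 ASVs tested, 122 were Lachnospiraceae and 78 Ruminococcaceae or Oscillospiraceae, a similar split. In healthy libraries 10 of these 18 had reads in KO, 3 had reads in WT and 8 had none. The converse, reads in all 4 WT libraries and in no KO library, was found for 10 ASVs, all Firmicutes and all past the threshold, which took 5.30% to 9.48% of each WT library. Among them, asv18, asv28 and asv171 met the filter through WT libraries under DSS alone, and asv136 and asv257 would not have met it without those. Of these 10, 7 had reads in healthy WT, 5 in healthy KO and 3 in neither.

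Among the ASVs found in KO only, asv36 of Ruminococcus held 0.778%, 0.919%, 1.53% and 2.03% in KO replicates 0 to 3, at least 265.5-fold above the WT limit. In the [Eubacterium] siraeum group, named after a Ruminococcaceae species, asv37 held 0.0822%, 0.261%, 1.43% and 3.31% (at least 257-fold). For both ASVs KO replicate 0 was the lowest and KO replicate 3 the highest of the KO libraries, with a wider spread for asv37. A second ASV of the siraeum group, asv86, had reads in WT replicates 0 and 2 only, with 1.60% and 0.0817%, and the genus did not pass (edgeR adjusted p = 0.529).

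In the NK4A136 group, asv15 held 1.59%, 0.542%, 1.52% and 0.488% in KO and no read in WT (at least 209-fold, edgeR adjusted p = 0.00209). The smaller ASVs asv138 and asv111 of that group averaged 0.191% and 0.165% in KO. The other ASVs named for KO were asv52 and asv154 of Clostridia_UCG-014, asv75 of Incertae Sedis in Ruminococcaceae, asv112 of Ruminococcus and asv100 of the vadinBB60 group, with lower bounds from 31.7-fold to 111-fold. Of these, asv52 had no read in KO replicate 3.

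Among the ASVs found in WT only, besides asv18 of Anaerostipes, asv28 of the coprostanoligenes group held 0.276%, 1.61%, 2.81% and 3.203% (at least 399.6-fold above the KO limit). WT replicate 0 was the lowest WT library for both. In the Clostridia_vadinBB60_group, another uncultured clostridial lineage, asv49 held 0.382%, 0.875%, 0.796% and 1.14% (at least 162-fold, edgeR adjusted p = 0.00164). The others were asv42 and asv172 of Clostridia_UCG-014, asv155 of the vadinBB60 group, asv27 of the NK4A136 group, asv136 of unclassified Ruminococcaceae, asv171 of the uncultured order RF39 and asv91 of Turicibacter, with WT means of 0.0515% to 0.856%. Reads were in 3 of 4 WT libraries for asv155 and asv91 and in all 4 for the rest.

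Where an ASV was still tested, leaving out a single library ended the call for 4 of the 24 ASVs named for their change. ASVs that met the read filter through 1 genotype under DSS alone were not tested without a library of that genotype. For them these fits cannot show whether the call rests on a single library of that genotype. The same holds for asv155 without some of the WT libraries. The call of asv136 was lost without any 1 of the 8 libraries (edgeR adjusted p from 0.0570 to 0.0794). The call of asv42 was lost without WT replicate 0 or any KO library (edgeR adjusted p from 0.0508 to 0.0751). The call of asv155 was lost without any KO library (edgeR adjusted p from 0.0590 to 0.0854), and that of asv91 without KO replicate 1, 2 or 3 (edgeR adjusted p from 0.0514 to 0.0542).

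**Figure D4:**
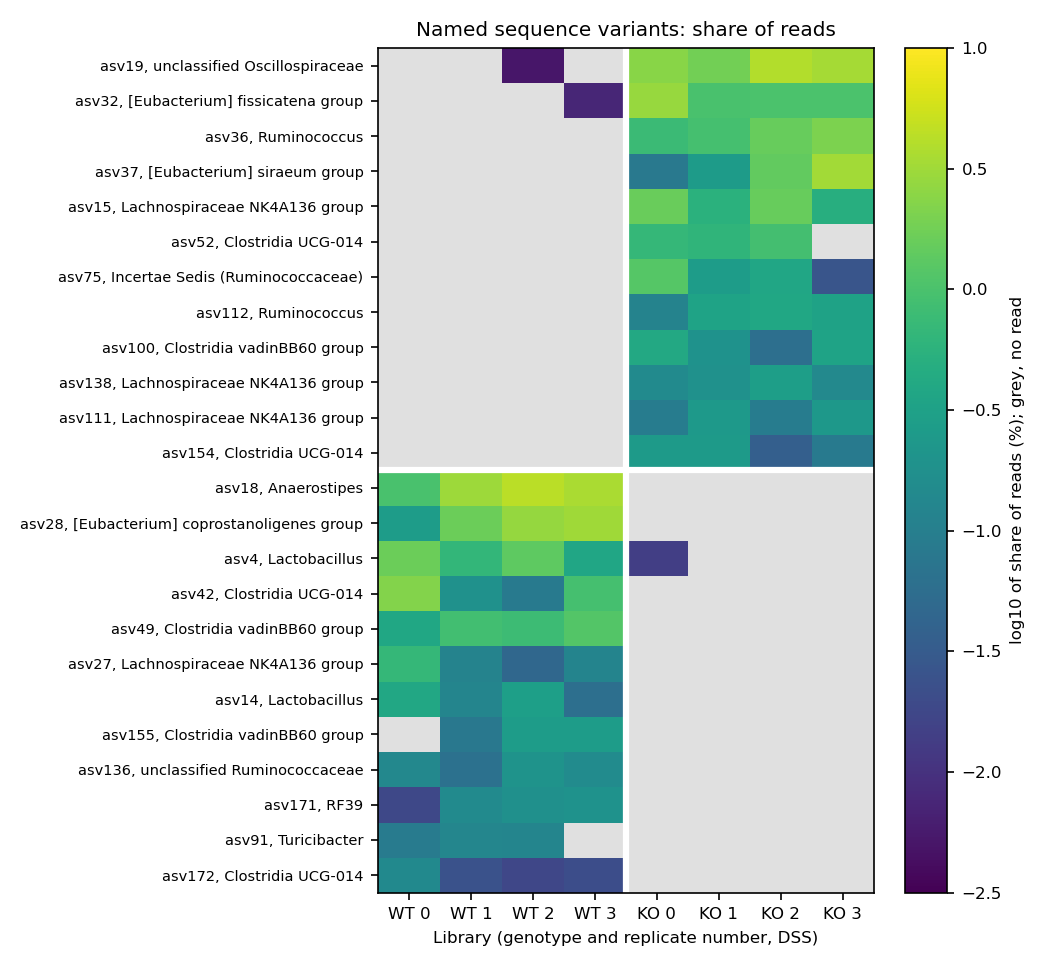
Share of reads, as log10 of the percentage, of the 24 ASVs named for their change (rows) in the 8 libraries under DSS (columns), with grey cells for no read. The upper 12 rows have reads in KO and the lower 12 in WT, and asv19, asv32 and asv4 each have 1 further cell with few reads in the opposite genotype.

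Within Lactobacillus, lactic acid bacteria of the stomach and gut, ASVs changed in opposite directions while the genus total did not pass. The genus held 1.34% ± 0.871 in WT and 1.11% ± 0.961 in KO (edgeR adjusted p = 0.705). The ASV asv4, assigned to Lactobacillus murinus, held 1.65%, 0.647%, 1.36% and 0.373% in WT, and in KO 0.0142% in replicate 0 and no read in the others (log2 fold change -7.94 ± 1.40, edgeR adjusted p = 0.00209). The other murinus ASV, asv14, held 0.399%, 0.125%, 0.295% and 0.0602% in WT and no read in KO (at least 44.5-fold, edgeR adjusted p = 0.00121). Both were in all 8 healthy libraries, where asv4 averaged 5.10% in WT and 12.8% in KO.

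In contrast, asv8, assigned to Lactobacillus johnsonii, held 0.349%, 0.0392%, 0.0348% and 0.0361% in WT and 1.47%, 2.29%, 0.377% and 0.276% in KO (log2 fold change 3.55 ± 0.96, edgeR adjusted p = 0.0225). WT replicate 0 exceeded KO replicate 3, so the groups overlapped. Lactobacillus reads in KO under DSS were thus nearly all of the johnsonii ASV, 1.10% of 1.11%, and in WT mostly of the murinus ASVs, 1.23% of 1.34%. The species names are those of the deposited taxonomy, and asv8 was picked out after its values were seen.

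ASVs called in both directions also occurred in Clostridia_UCG-014 (3 higher and 3 lower of 36 tested), the vadinBB60 group (3 and 2 of 24), the NK4A136 group (4 and 3 of 19), unclassified Lachnospiraceae (3 and 1 of 64) and GCA-900066575 (1 and 1 of 4). Over all 308 ASVs tested, 27 (8.77%) were higher and 18 (5.84%) lower. These calls within genera include asv138, asv154 and asv328, which met the filter through KO libraries under DSS alone, so they had to differ. Without the group where they were higher, asv41 and asv190 of Clostridia_UCG-014 and asv100 and asv155 of the vadinBB60 group would not have met it. The same holds for asv170 and asv257, the calls in GCA-900066575. In the vadinBB60 group the ASVs called lower held 0.956% ± 0.430 in WT and no read in KO, and those called higher no read in WT and 0.323% ± 0.0825 in KO. In Clostridia_UCG-014 most reads lay in ASVs that were not called, with 17.2% ± 4.69 in WT and 14.2% ± 3.98 in KO.

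In the NK4A136 group the ASVs called higher held 1.46% ± 0.586 in KO and none in WT, and those called lower 3.57%, 0.191%, 0.361% and 0.537% in WT replicates 0 to 3 and 0.00906% on average in KO. WT replicate 0 held most of the latter reads in WT. The high total of KO replicate 1 came from asv12, which held 20.7% of that library, 0.211% of KO replicate 2, 0.0909% of KO replicate 3 and had no read elsewhere in the series. The number of ASVs of this group averaged 12 ± 3.83 per WT library and 19 ± 3.16 per KO library.

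**Figure D5:**
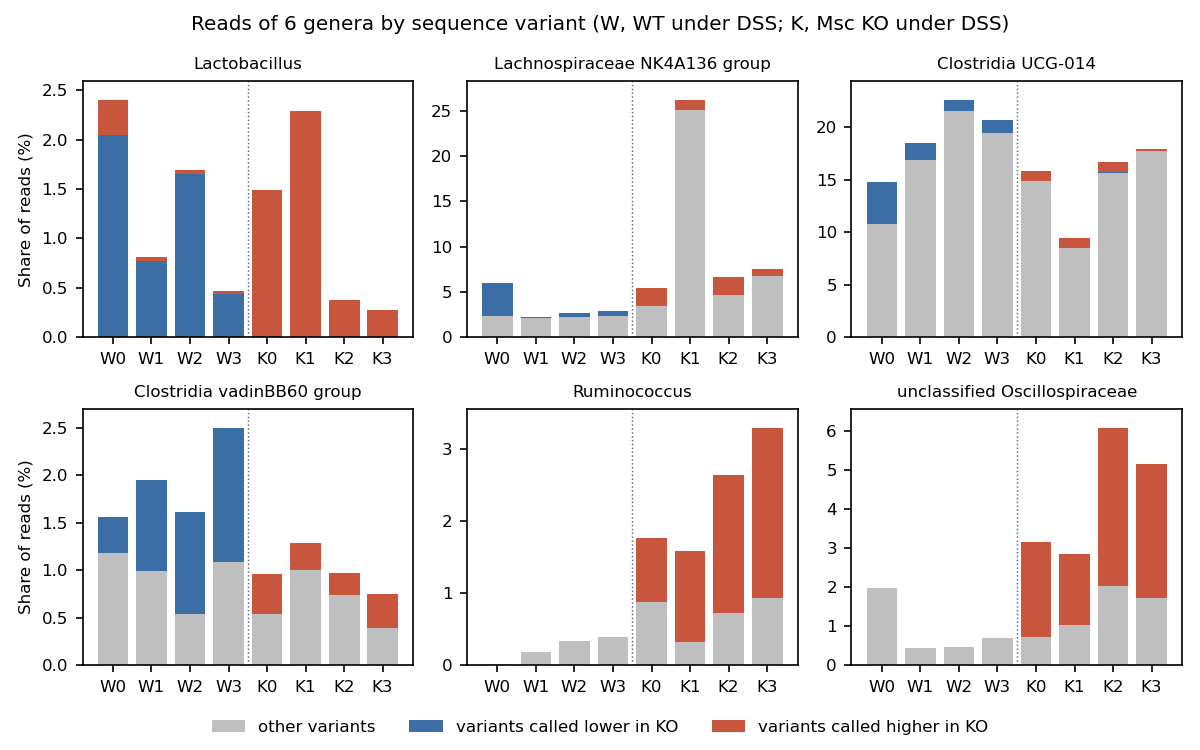
Share of reads (%) of 6 genera in each library, stacked by ASVs called lower in KO, called higher in KO, and all others, with W0 to W3 for WT and K0 to K3 for KO replicates under DSS. In Lactobacillus the WT bars are mostly ASVs called lower and the KO bars ASVs called higher, while in Clostridia_UCG-014 most reads are in other ASVs.

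Taxon lists are given against all ASVs tested, of which 27 of 308 were higher and 18 lower, with a median log2 difference of 0. Of the 308, 48 had no read under DSS and passed the read filter through healthy libraries, so counts of tested members include some without DSS reads. Lachnospiraceae counted 10 higher and 7 lower of 122 tested, with a median of 0. These calls include asv138 and asv328 (higher) and asv18 (lower), which met the filter through 1 genotype under DSS alone. They also include asv32 and asv170 (higher) and asv257 (lower), which would not have met it without the group where they were higher. Ruminococcaceae and Oscillospiraceae together counted 8 higher and 1 lower of 78, with a median of 0.47. Of the 8, asv19, asv36, asv37 and asv112 met the filter through KO libraries under DSS alone, so they had to differ. A further one, asv75, would not have met it without the KO libraries. The 1 counted as lower, asv136, would not have met it without the WT libraries under DSS. The summed share of both families was 6.31% ± 1.19 in WT and 13.4% ± 4.41 in KO (SD, n = 4 each), with ranges of 5.12% to 7.88% and 9.40% to 17.7% that did not overlap. The uncultured lineages Clostridia_UCG-014, vadinBB60 and RF39 counted 6 higher and 6 lower of 63, with a median of 0, and summed to 21.3% ± 3.66 in WT and 16.0% ± 3.61 in KO. Their calls include asv154 (higher) and asv171 (lower), which met the filter through 1 genotype under DSS alone. They also include asv100 and asv190 (higher) and asv41 and asv155 (lower), which would not have met it without the group where they were higher.

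Genera known as butyrate producers counted 0 higher and 1 lower of 10 ASVs, with a median of 0. They summed to 1.02%, 3.21%, 4.48% and 4.11% in WT and 0.254%, 0.0823%, 0% and 0.112% in KO. The member that passed was the Anaerostipes ASV, which held most of the WT sum and met the filter through WT libraries alone. Plant fibre fermenters (Ruminococcus and Monoglobus) counted 2 higher and 0 lower of 4, with a median of 5.94, and summed to 0.503% ± 0.370 in WT and 2.57% ± 0.831 in KO. The 2 counted as higher were asv36 and asv112 of Ruminococcus, which met the filter through KO libraries alone, while Monoglobus, a pectin degrader, held 0.272% ± 0.230 in WT and 0.255% ± 0.172 in KO (edgeR adjusted p = 0.826).

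Lactic acid bacteria counted 1 higher and 2 lower of 4 ASVs, all Lactobacillus, and Erysipelotrichales 0 and 1 of 9. No ASV passed among Muribaculaceae (3 tested, median 0.40), Tannerellaceae (1, median -0.62), Enterobacterales with Enterococcus (3, median 0.44) and mucin users (1, Mucispirillum). Of 2 Actinobacteriota tested, 1 was higher, asv223 of Parvibacter, which met the filter through KO libraries under DSS alone. Of the 22 Actinobacteriota ASVs under DSS, 18 were among the 711 of WT replicate 1. Bacteroides and relatives, sulfate reducers, Campylobacterota and segmented filamentous bacteria had no read in the 8 libraries. Saccharimonadia, at 0.0461% of WT replicate 1, were all among the 711.

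Chloroplast and mitochondrial reads averaged 0.0180% in WT and 0.0105% in KO, with the highest library, WT replicate 1, at 0.0597%. Bacteria known from skin and reagents held 0.466% of WT replicate 1 and at most 0.00695% of any other library, and none of WT replicate 1 once the 711 ASVs were left out.

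The genotype difference itself changed between healthy and DSS libraries for some taxa. The interaction passed for 3 of 66 genera, with 12 at an unadjusted p under 0.05. Ruminococcus averaged 1.61% in healthy WT with no read in any healthy KO library, against 0.231% in WT and 2.32% in KO under DSS (interaction, edgeR adjusted p = 7.33e-05). Unclassified Oscillospiraceae averaged 1.89% in healthy WT and 0.9504% in healthy KO, and the log2 interaction was 2.86 ± 0.62 (edgeR adjusted p = 0.00958). Monoglobus averaged 0.268% in healthy WT and 0.00178% in healthy KO (interaction, edgeR adjusted p = 0.0419). The number of such genera was 5 without healthy KO replicate 0 and 1 without healthy KO replicate 1 or 3.

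By family, the interaction passed for 3 of 26, with 7 at an unadjusted p under 0.05. Muribaculaceae averaged 23.2% in healthy WT and 36.3% in healthy KO, and the log2 interaction was -0.84 ± 0.26 (edgeR adjusted p = 0.0380). As a genus, with the same reads, it did not pass, at -0.77 ± 0.41 (edgeR adjusted p = 0.261). Ruminococcaceae averaged 3.81% in healthy WT and 1.02% in healthy KO, and the log2 interaction was 2.28 ± 0.59 (edgeR adjusted p = 0.0124). The remaining one, Monoglobaceae, holds the same reads as Monoglobus.

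Of the 45 ASVs called under DSS, 8 were also among the 20 called between healthy genotypes, which is 17.8% of the former and 40.0% of the latter, and 7 had the same sign. This overlap was not tested. The exception was asv27 of the NK4A136 group, which averaged 0.0378% in healthy WT and 1.96% in healthy KO, and 0.241% in WT with no read in KO under DSS. The interaction passed for 4 of the 308 ASVs, with 53 at an unadjusted p under 0.05: asv27, the murinus ASVs asv4 and asv14, and asv24 of Ruminococcus, which averaged 1.14% in healthy WT, had no read in healthy KO, and held 0.231% in WT and 0.709% in KO under DSS.

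With the 711 ASVs of WT replicate 1 left out of the fits, the same 9 genera, 3 families and 45 ASVs passed. None of the 711 could meet the read filter on its own. The remaining shares of that library rise when they are removed, Parabacteroides from 22.8% to 27.5% and Clostridia_UCG-014 from 18.5% to 22.3%.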

How the data were processed

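Stool 16S amplicons of variable regions 3 to 4 were sequenced in 16 libraries. The values are read counts per sequence and library, as deposited, neither normalised nor rarefied. The taxonomy table gives a confidence per assignment, a fraction from 0.700 to 1 per the file headers. Cutadapt is named in the submitters' processing notes; the denoiser, the classifier and its database are not given in the sources used here. Names of genus and family agreed between both deposited tables for all 1330 ASVs; 387 ASVs, with 6.76% of reads, had no genus name and were labelled by the next higher rank. Groups come from the labels.

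Counts were summed by genus, family and phylum. Taxa with at least 5 reads in at least 4 of the 16 libraries were tested with edgeR 4.0.16 (R 4.3.3; TMM factors, robust quasi-likelihood, all 16 libraries in 1 fit with a mean per group), adjusted by Benjamini-Hochberg over each rank at 0.05. Fold changes are KO minus WT. Their SE is the size of the log2 fold change divided by the square root of the F statistic. It is approximate, above all where a group has few reads or none. Shares were compared by exact two-sided permutation of log2 shares with a pseudocount of 0.01 percentage points (70 relabellings, smallest p 0.0286), and diversity after thinning to 49253 reads in 100 draws. The fit was tested on simulated data. Alternatives were TMMwsp, RLE or total-count scaling, DESeq2 1.42.0, limma 3.58.1 on centred log-ratios, other read filters, the DSS libraries alone, the replicate number as a block, ASVs of 1 library left out, and each library left out in turn. Taxa named are called genera that were seen in 3 or more of the 4 libraries where they were higher, or that a list holds, the 10 most abundant genera and ASVs, families and phyla of at least 1%, and at most 12 called ASVs per direction by fold change; others are named beside a count they explain, after their values were seen. The members and the 19 taxon lists were chosen with earlier results of these data known.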

Additional observations from a re-analysis of the deposited data

Results flagged for a closer look

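Within groups of 4 libraries, 12 of 68 sets of values had a library far from the other 3, where chance gives about 1 in 20 for independent sets of measured values. The sets here are not independent, as some hold the same reads at several ranks, and in 2 of them the other 3 libraries are all at 0, which flags any value. WT replicate 0 was such a library for Mucispirillum, its family Deferribacteraceae and its phylum Deferribacterota (8.94%, against 0.50% to 0.996%), which are the same reads. It was so too for Acholeplasmataceae (3.99%, against 1.33% to 1.62%), the Lachnospiraceae NK4A136 group (5.95%, against 2.28% to 2.89%) and unclassified Oscillospiraceae (1.98%, against 0.439% to 0.690%). KO replicate 1 was high for the NK4A136 group (26.2%, against 5.43% to 7.57%) and for its family Lachnospiraceae (30.7%, against 11.7% to 14.3%). KO replicate 0 was high for the [Eubacterium] fissicatena group (2.88%, against 0.989% to 1.03%) and the [Eubacterium] xylanophilum group (0.239%, against 0%). WT replicate 3 held the WT reads of the fissicatena group (0.00752%, against 0%), and WT replicate 1 held 842 ASVs at equal depth, against 172 to 191.

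The genotype difference under DSS differed from that in healthy libraries, by the interaction in the edgeR fit, for the genera Ruminococcus (log2 15.95, a size that depends on the prior count because healthy KO libraries had no read) and unclassified Oscillospiraceae (log2 2.86), and for the families Muribaculaceae (log2 -0.84) and Ruminococcaceae (log2 2.28). It did so for the Lactobacillus murinus ASVs asv4 (log2 -9.64) and asv14 (log2 -11.83) and for asv27 of the NK4A136 group (log2 -16.20), where no read in KO under DSS again makes the size of asv14 and asv27 depend on the prior count. As a genus, with the same reads as the family, Muribaculaceae did not pass the interaction (log2 -0.77, edgeR adjusted p = 0.261).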

How the results depend on the processing

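The genera past the threshold numbered 9, and 15 with TMMwsp factors, 4 with the replicate block and 6 to 8 with 1 library left out. The split of higher and lower was 8 and 2 with RLE factors, 9 and 3 with total counts or DESeq2, 5 and 4 with limma, 5 and 6 with no filter, 6 and 5 with at least 20 reads, and 5 and 3 with the DSS libraries alone. The ASVs numbered 45, and 78 with no filter, 23 with the replicate block and 18 to 35 with 1 library left out. The families numbered 3, and 0 with TMMwsp factors, RLE factors, the replicate block or ASVs of 1 library left out, 5 with total counts or DESeq2, 1 with no filter, at least 20 reads or the DSS libraries alone, 2 with limma, and 0 to 5 with 1 library left out. Where edgeR called 0 families, 8, 6, 7 and 9 had an unadjusted p under 0.05 in those 4 settings, and 6 to 8 with a library left out. The genera with an interaction numbered 3, and 6 with TMMwsp factors or at least 20 reads, 10 with DESeq2, 8 with limma and 1 to 5 with 1 library left out. The read filter was applied again in each fit. With 1 DSS library left out, 65 genera were tested in place of 66. In place of 308 ASVs, 291 to 295 were tested without a KO library under DSS, and 299 or 300 without a WT one. How far this made the shifts was not tested, nor was any other cause. The replicate numbers did not pair WT with KO libraries under DSS. Same-numbered WT and KO libraries correlated at -0.394 to 0.366 over 57 genera and -0.229 to 0.0850 over 179 ASVs. Of 4 KO libraries, 1 correlated best with its own number. Whether a number links a healthy library to a DSS library was not tested. The main interaction fits treat all 16 libraries as independent.

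Signs turned for differences that had not passed. With TMMwsp factors the log2 difference was -0.25 for the genus Muribaculaceae, -0.29 for Escherichia-Shigella and -0.0391 for asv5. With RLE factors it was 0.16 for Turicibacter, 0.20 for the genus label Ruminococcaceae, 0.17 for the family Clostridia_UCG-014, 0.47 for Erysipelotrichaceae and 0.12 for Lactobacillaceae. With limma it was -0.19 for Escherichia-Shigella, 0.0288 for Deferribacteraceae, -0.21 for asv5, -0.29 for asv9 and -0.0430 for asv3. At least 20 reads gave -0.0009 for Muribaculaceae and -0.12 for Escherichia-Shigella, no filter 0.0553 for Lactobacillaceae, and for asv5 DESeq2 gave -0.10 and the replicate block -0.0350. With 1 library left out the ranges were -0.51 to 0.83 for Escherichia-Shigella, -0.93 to 0.45 for Mucispirillum, -1.38 to 0.61 for Deferribacteraceae, -1.17 to 0.0312 for Lactobacillaceae, -0.35 to 0.60 for Enterobacteriaceae, -0.0578 to 0.28 for asv5, -0.38 to 0.74 for asv9 and -1.45 to 0.92 for asv10.

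The Shannon difference turned to 1.09 with the inverse Simpson index, 0.22 without the ASVs of WT replicate 1 only and 0.18 without those of any 1 library, and ran from -0.14 to 0.17 with 1 library left out. The difference in number of ASVs turned to 33.2 and 28.0 and ran from -203 to 20.4. The ratio of Firmicutes to Bacteroidota ran from 0.17 to 0.38, and the variance share of composition from 41.4% to 52.4%. Over 64 named taxa and 1162 alternatives, 1021 kept direction and side of the threshold, 99 lost the call, 16 gained one and 26 turned sign. Depth limits shares under 0.00541%, and 4 libraries a group limit the exact tests to p of 0.0286.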
